A study of Mus musculus with 4 samples.

Results

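Protein-coding genes for heat shock proteins, J-proteins and the CCT chaperonin were described in mouse embryonic stem cells that had been directed towards mesoderm and either lacked Stk40 or carried it. The members were chosen by a rule on gene symbols that uses no measured value, but with earlier results of these data known. It takes in Hspa, Hspb, Dnaja, Dnajb and Dnajc genes with a number, the Hsp90 genes, Hspd1, Hspe1, Hsph1, Tcp1 and Cct2 to Cct8. This gave 81 of the 51826 genes in the table, of which 21948 are protein-coding. The 2 groups were Stk40-/- cells (2 libraries) and wild-type cells (2 libraries), both derived from embryonic stem cells of C57BL/6 background and collected at day 3. Both had been kept on feeder fibroblasts and then on gelatin, given BMP4 (10 ng/ml) over 2 days and, after that, CHIR99021, a GSK3 inhibitor (1 uM), together with 0.5% DMSO. The sources used here do not give how the deletion was made or whether each genotype is 1 clone.

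Chaperones bind polypeptides that are unfolded or partly folded and hold or release them in cycles driven by ATP. Hsp70 proteins do this with the help of J-proteins, which bring clients and trigger ATP hydrolysis, and of nucleotide exchange factors such as the Hsp110 proteins. Hsp90 acts later on kinases, steroid receptors and other clients, while the CCT chaperonin, a ring of related subunits, encloses actin, tubulin and other proteins. Small heat shock proteins hold clients without ATP. Part of the family is induced by heat through heat shock factors, whereas other members are expressed in all cells and are abundant in dividing cells. Separate sets work in the endoplasmic reticulum (ER) and in mitochondria.

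Values were TPM, a transcript abundance per length that sums to the same total in each library, so levels of different genes can be set side by side but sequencing depth is unknown. Stk40 itself had 3.54 and 3.17 TPM in Stk40-/- libraries 1 and 2, against 28.9 and 39.9 TPM in wild-type libraries 1 and 2. Its log2 fold change was -3.01 (SE 0.21, limma adjusted p = 0.139), so not even the deleted gene passed the threshold of 0.05 in this design. Fold changes are differences of log2(TPM + 1), Stk40-/- minus wild type, a scale that understates differences at low levels. Of 12 mesoderm markers 7 were tested and all 7 of these were negative, with a summed level of 455 and 301 TPM in Stk40-/- libraries against 1377 and 720 TPM in wild-type libraries. The 16 markers of feeder fibroblasts summed to 325 and 339 TPM in Stk40-/- libraries against 454 and 457 TPM in wild-type libraries, with 10 of 12 tested negative. Most of that sum was Tagln, an actin-binding protein gene, at 268 and 282 TPM in Stk40-/- libraries against 385 and 359 TPM in wild-type libraries. S100a4 added 16.7 TPM in wild-type library 2 and was listed at 0 in the others. The 7 pluripotency markers, of which 3 were positive and 4 negative, summed to 886 and 870 TPM in Stk40-/- libraries against 779 and 858 TPM in wild-type libraries. No marker was at 0 in all 4 libraries, and the part of cell composition in the chaperone values was not tested. In such bulk samples fewer cells of a type and less RNA per cell cannot be told apart.

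Chaperone transcripts were abundant in every library. The 81 members together took 1.82% and 1.74% of all TPM in Stk40-/- libraries 1 and 2, against 1.71% and 1.55% in wild-type libraries 1 and 2. By mean over the 4 libraries, 3 members had at least 1000 TPM, 23 had 100 to 1000, 24 had 10 to 100 and 19 had 1 to 10. The top of the order was the constitutive cytosolic Hsp70 gene Hspa8, which ranked 31 among all genes by mean TPM, followed by the Hsp90 genes Hsp90ab1 (rank 43) and Hsp90aa1 (rank 129). Next came Hspd1 at rank 156, which encodes the mitochondrial chaperonin Hsp60, and the CCT subunit genes Cct2, Tcp1 and Cct4 at ranks 164, 170 and 191. At the low end, 5 members were listed at 0 in all libraries (Dnajb8, Hspb3, Dnajc5b, Dnajc5g and Cct8l1), and 7 lay above 0 but below the filter of a mean of 1 TPM (Hspa1l, Hspa12b, Dnajb7, Dnajb13, Hspb7, Cct6b and Dnajc6). Just below the filter were Dnajc6 at a mean of 0.956, Cct6b at 0.933 and Hspa1l at 0.793 TPM, and just above it Dnajb3 at 1.60, Hspb9 at 2.05 and Hspa2 at 2.42 TPM. The other 69 members were tested, and all 69 had a mean of at least 1 TPM in both groups.

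**Figure D1:**
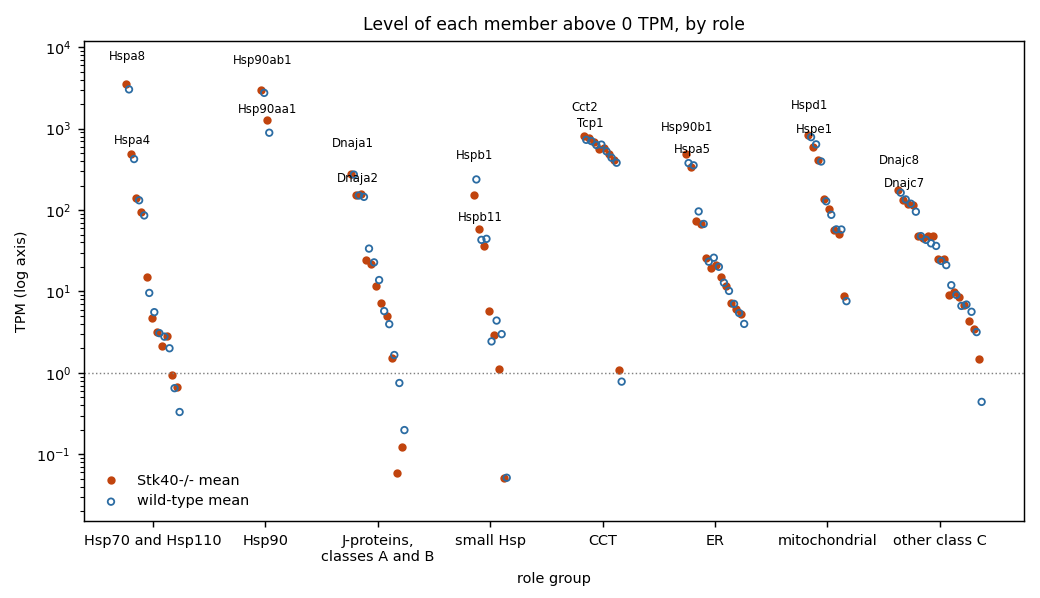
Level of each member above 0 TPM (log axis, TPM), by role group, as the mean of the 2 Stk40-/- libraries (filled) and of the 2 wild-type libraries (open). Levels run over more than 3 orders of magnitude, from Hspa8 at 3492 TPM in Stk40-/- and 3031 TPM in wild-type cells down to members below 1 TPM.

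No member passed the limma test. Of all 15739 genes tested 0% had an adjusted p below 0.05 (smallest adjusted p = 0.114), and the smallest adjusted p among members was 0.361, for Hspb11. At an unadjusted p below 0.05 there were 8 members, 11.6% of those tested, against 11% of all genes (1730 genes). Of these, 5 were higher in Stk40-/- cells (Hspa4, Hspa4l, Hspb11, Cct3 and Dnajc21, 7.25% of members against 6.48% of all genes) and 3 lower (Dnajb1, Hspb1 and Dnajb11, 4.35% against 4.51%). These shares are near those of all genes. The signs leaned towards positive, with 45 members positive and 24 negative, or 65.2% positive against 58.6% of all genes tested, and the members' median log2 fold change was 0.09 against 0.07 for all genes. In 25 members (36.2%, against 27.5% of all genes) each Stk40-/- library exceeded each wild-type library. In 8 members (11.6%, against 16.6% of all genes) each was below them, namely Dnajb1, Hspb1, Hspb9, Cct8, Dnajb11, Dnaja3, Dnajc22 and Dnajc25.

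**Figure D2:**
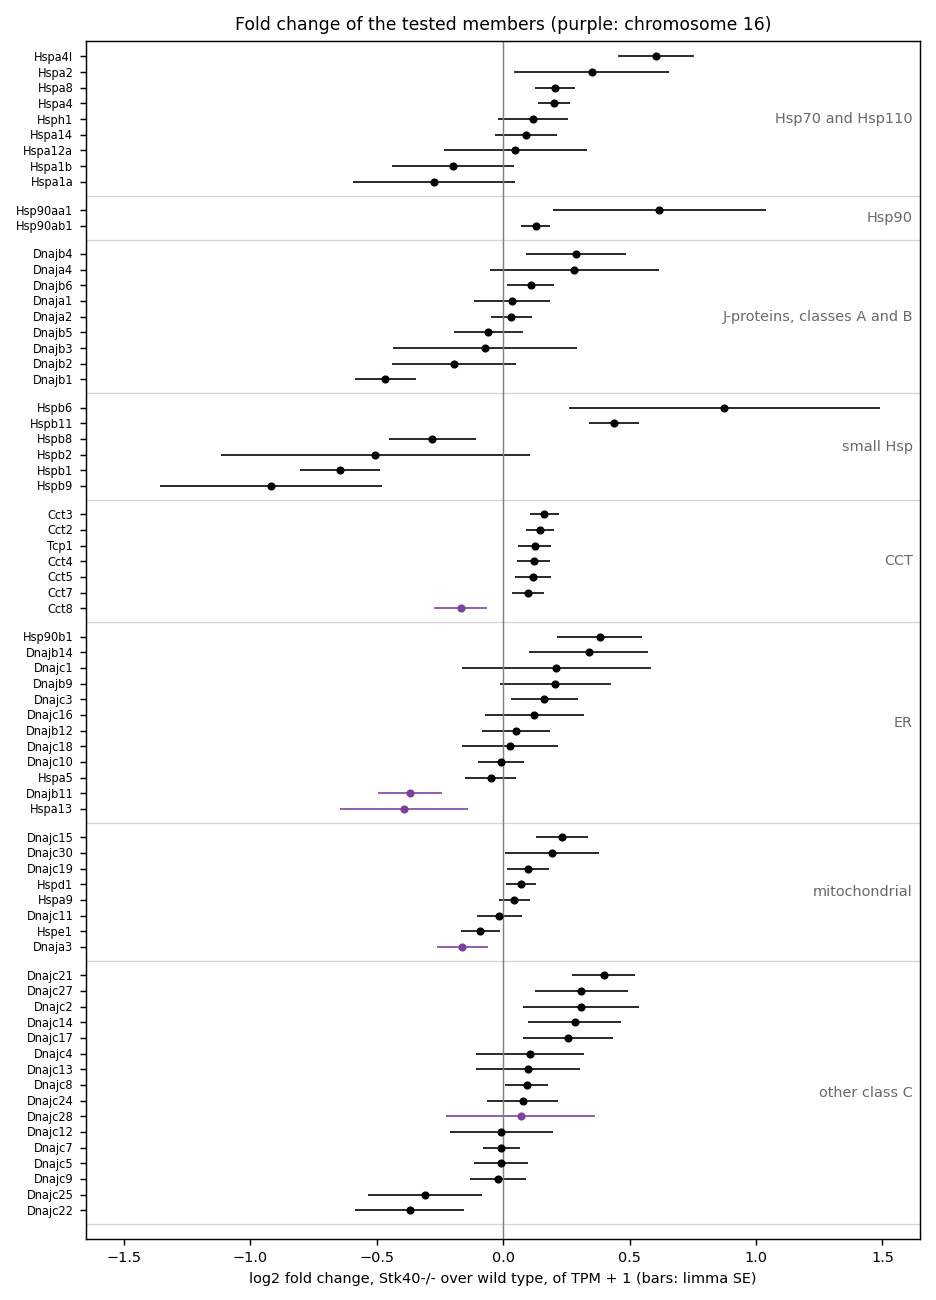
Log2 fold change of each tested member, Stk40-/- over wild type on the TPM + 1 scale, with the limma SE as a bar, grouped by role. Purple points are the 5 members on chromosome 16, 4 of which are negative, and no member passed the test.

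The cytosolic and nuclear Hsp70 and Hsp110 genes summed to 4427 and 4058 TPM in Stk40-/- libraries, against 3873 and 3519 TPM in wild-type libraries. Of 11 genes 9 were tested, 7 with a positive and 2 with a negative fold change. Their median log2 fold change was 0.12, against 0.07 for all genes tested. The larger part of the sum was Hspa8, which also uncoats clathrin vesicles. Hspa8 (ENSMUSG00000015656.17, GRCm38 chromosome 9, 40800984 to 40810087) had 3638 and 3346 TPM in Stk40-/- libraries, against 3203 and 2859 TPM in wild-type libraries. The groups did not overlap, with a log2 fold change of 0.21 (SE 0.08, adjusted p = 0.466). Hspa14, a ribosome-associated Hsp70, had 153 and 129 TPM in Stk40-/- libraries, against 139 and 124 TPM in wild-type libraries. The groups overlapped, and the log2 value of 0.09 lay between -0.03 and 0.22 with 1 library left out.

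Among the nucleotide exchange factors of the Hsp110 type, 2 of 3 were higher without overlap, as were 27.5% of all genes tested. Hspa4 (chromosome 11, 53259814 to 53300457) had 502 and 471 TPM in Stk40-/- libraries, against 415 and 431 TPM in wild-type libraries (log2 fold change 0.20, SE 0.06, adjusted p = 0.432). Hspa4l, a close relative of Hspa4 at a far lower level (chromosome 3, 40744495 to 40796103), had 14.9 and 15.3 TPM in Stk40-/- libraries, against 10.2 and 9.04 TPM in wild-type libraries. The log2 fold change was 0.60 (SE 0.15, adjusted p = 0.388). The difference in level was larger than the spread within either group, at 15.1 ± 0.34 TPM in Stk40-/- cells and 9.60 ± 0.79 TPM in wild-type cells (SD, n = 2 each). The third, Hsph1, had 103 and 84.2 TPM in Stk40-/- libraries, against 91.0 and 80.8 TPM in wild-type libraries, and overlapped. Hspa2, best known from male germ cells, had 3.19 and 2.49 TPM in Stk40-/- libraries, against 2.21 and 1.80 TPM in wild-type libraries (log2 fold change 0.35, SE 0.31, adjusted p = 0.665).

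The stress-inducible Hsp70 genes Hspa1a and Hspa1b, which lie next to each other on chromosome 17, were near the bottom of the tested range. Hspa1a had 2.45 and 1.81 TPM in Stk40-/- libraries, against 2.37 and 3.20 TPM in wild-type libraries (log2 fold change -0.27, SE 0.32, adjusted p = 0.751). Hspa1b had 5.56 and 4.002 TPM in Stk40-/- libraries, against 5.70 and 5.45 TPM in wild-type libraries (log2 fold change -0.20, SE 0.24, adjusted p = 0.760). The longest reading frames of the 2 genes are identical at 1918 positions (99.4%), so the split of reads between them is uncertain and their sum is the safer value. The sum was 8.01 and 5.82 TPM in Stk40-/- libraries, against 8.07 and 8.65 TPM in wild-type libraries, so that Hspa8 exceeded the inducible pair 454-fold and 575-fold in Stk40-/- libraries, against 397-fold and 330-fold in wild-type libraries. Their promoters are just as alike, 98.7% identical over windows of 300 bases. The stretch printed here is the same in both and holds the 2-unit heat shock element GAANNTTC (capitals), the palindrome that 2 subunits of a heat shock factor bind. It is shown because these are the classic heat-inducible genes and their level was low in both groups. The sequences come from RefSeq on GRCm38.p6, minus strand, at chr17:34972233-34972280 for Hspa1a and chr17:34959315-34959362 for Hspa1b, with the capitals at -104 to -97 from the start of the gene.
Hspa1a: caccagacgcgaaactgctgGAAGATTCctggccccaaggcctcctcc
Hspa1b: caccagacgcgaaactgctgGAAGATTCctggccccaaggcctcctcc

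Promoter windows from RefSeq, 250 bases before to 50 bases after each start, were found for 66 of the 81 members and for 27025 genes in all. A gene counted as holding a motif if any of its windows did. On either strand, the 2-unit element GAANNTTC occurred in 16 of the 66 members (24.2%) against 9.04% of all genes with a window. The 3-unit form, which is GAANNTTC, 2 bases of any kind and GAA, or on the other strand TTC, 2 bases and GAANNTTC, contains the 2-unit form. It occurred in 4 members (6.06%: Hspd1, Hspe1, Dnajb6 and Hsph1) against 0.662% of all genes with a window. Hspd1 and Hspe1, which share promoter sequence, count separately here, as do Hspa1a and Hspa1b for the 2-unit form. Of the 13 tested members with the 2-unit form 8 had a positive and 5 a negative fold change, with a median log2 value of 0.07, while the 42 tested members without it had 29 positive and 13 negative and a median of 0.10. The members with the element were therefore found on both sides of 0, Hspb6 at 0.87 and Hspb1 at -0.65 being the ends of their range.

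The cytosolic Hsp90 genes summed to 4327 and 4205 TPM in Stk40-/- libraries, against 3895 and 3379 TPM in wild-type libraries. Hsp90ab1, the constitutive form, had 2929 and 3073 TPM in Stk40-/- libraries, against 2657 and 2836 TPM in wild-type libraries, with no overlap (log2 fold change 0.13, SE 0.06, adjusted p = 0.501). Hsp90aa1, the form that stress induces (chromosome 12, 110690605 to 110702728), had 1399 and 1133 TPM in Stk40-/- libraries, against 1237 and 543 TPM in wild-type libraries. The groups overlapped, because wild-type library 1 lay between the Stk40-/- libraries and wild-type library 2 stood far below all others. The log2 fold change of 0.62 (SE 0.42, adjusted p = 0.637) became 0.02 when wild-type library 2 was left out, and 1.21 when wild-type library 1 was left out instead. The ratio of Hsp90aa1 to Hsp90ab1 was 0.478 and 0.369 in Stk40-/- libraries, against 0.466 and 0.192 in wild-type libraries. The size of the Hsp90aa1 difference thus rested on which wild-type library was used.

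J-proteins of classes A and B outside the ER and mitochondria, the partners that act with cytosolic Hsp70, differed little as a group. They summed to 698 and 624 TPM in Stk40-/- libraries, against 688 and 615 TPM in wild-type libraries, and 5 of 9 tested members were positive and 4 negative (median log2 fold change 0.03). The 3 most abundant overlapped between groups. Dnaja1 had 298 and 258 TPM in Stk40-/- libraries, against 306 and 240.1 TPM in wild-type libraries. Dnaja2 had 159.9 and 149 TPM in Stk40-/- libraries, against 147 and 155 TPM in wild-type libraries. Dnajb6, whose product keeps polyglutamine proteins from aggregating, had 166 and 148 TPM in Stk40-/- libraries, against 149.9 and 140.5 TPM in wild-type libraries. Their log2 fold changes were 0.03, 0.03 and 0.11, with SEs of 0.15, 0.08 and 0.09.

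Dnajb1 stood apart from them. It encodes the heat-inducible Hsp40 that works with Hsp70 in refolding and in taking aggregates apart. Dnajb1 (ENSMUSG00000005483.10, chromosome 8, 83608193 to 83612653) had 25.4 and 22.8 TPM in Stk40-/- libraries, against 34.5 and 32.8 TPM in wild-type libraries. The Stk40-/- libraries were the lower ones without overlap, at 24.1 ± 1.87 TPM in Stk40-/- cells and 33.6 ± 1.24 TPM in wild-type cells (SD, n = 2 each). The log2 fold change was -0.47 (SE 0.12, adjusted p = 0.400, unadjusted p = 0.0155) and ranged from -0.54 to -0.39 with 1 library left out. Dnajb4, a related Hsp40 gene, went the other way at a lower level, with 7.24 and 7.18 TPM in Stk40-/- libraries, against 6.31 and 5.18 TPM in wild-type libraries (log2 fold change 0.29, SE 0.20, adjusted p = 0.638). Dnajb3 had 1.27 and 1.81 TPM in Stk40-/- libraries, against 1.57 and 1.75 TPM in wild-type libraries, and overlapped.

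The 3-unit heat shock element of the Dnajb6 promoter is shown as the longest form of the element in this group, from RefSeq GRCm38.p6, plus strand, chr5:29735832-29735884, with the element in capitals at -46 to -34 from the start.
Dnajb6: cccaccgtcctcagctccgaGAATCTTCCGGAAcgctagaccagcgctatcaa

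Small heat shock proteins had the lowest median of the role groups, at a log2 fold change of -0.39, with 2 of 6 tested members positive and 4 negative. They summed to 282 and 231 TPM in Stk40-/- libraries, against 367 and 303 TPM in wild-type libraries, and so did not overlap. Most of this sum was Hspb1, the gene of Hsp25 in mouse (Hsp27 in human), which binds unfolded proteins and acts on actin filaments. Hspb1 (ENSMUSG00000004951.10, chromosome 5, 135887919 to 135889563) had 167 and 136 TPM in Stk40-/- libraries, against 263 and 213 TPM in wild-type libraries. Its mean was 151 ± 22.1 TPM in Stk40-/- cells and 238 ± 35.2 TPM in wild-type cells (SD, n = 2 each), with a log2 fold change of -0.65 (SE 0.16, adjusted p = 0.385, unadjusted p = 0.0131). With 1 library left out it ranged from -0.80 to -0.49. The summed levels of mesoderm and of feeder fibroblast markers, given above, were also lower in both Stk40-/- libraries. Of the tested markers, 6 of 7 for mesoderm and 5 of 12 for feeders were lower without overlap, and 1 feeder marker was higher. Over all genes tested 16.6% were lower and 27.5% higher in this way. The part of these cell types in the Hspb1 value was not tested.

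The promoter of Hspb1 holds the 2-unit heat shock element at 2 places, in capitals between -117 and -90 from the start. The 250 bases before the start are shown, as those of the most abundant member with a lower level at an unadjusted p below 0.05, from RefSeq GRCm38.p6, plus strand, chr5:135887669-135887918.
Hspb1: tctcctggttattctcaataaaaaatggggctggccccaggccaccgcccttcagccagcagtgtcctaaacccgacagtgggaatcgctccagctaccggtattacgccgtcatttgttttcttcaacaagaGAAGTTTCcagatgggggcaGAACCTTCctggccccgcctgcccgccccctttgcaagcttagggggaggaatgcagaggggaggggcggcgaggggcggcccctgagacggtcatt

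The median of this group was 0.00 without Stk40-/- library 2 and -0.07 without wild-type library 1, but -0.51 over the 5 tested members other than Hspb11. Hspb8, which works with the cochaperone Bag3, had 40.8 and 32.1 TPM in Stk40-/- libraries, against 48.2 and 40.4 TPM in wild-type libraries, which overlapped only in that Stk40-/- library 1 lay just above wild-type library 2 (log2 fold change -0.28, SE 0.17, adjusted p = 0.604). Hspb9 had 0.672 and 1.55 TPM in Stk40-/- libraries, against 3.85 and 2.14 TPM in wild-type libraries, with no overlap (log2 fold change -0.92, SE 0.44, adjusted p = 0.522). At this low level the libraries of each genotype also lay far apart.

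Hspb6 and Hspb2 showed how far low members can differ between libraries of 1 group. Hspb6 had 8.90 and 2.69 TPM in Stk40-/- libraries, against 1.46 and 3.41 TPM in wild-type libraries. Hspb2 had 4.49 and 1.31 TPM in Stk40-/- libraries, against 6.28 and 2.51 TPM in wild-type libraries. Hspb2 overlaps the gene of another small heat shock protein, Cryab, on the opposite strand, and no source used here says that reads were assigned by strand, so the split between them is uncertain. Cryab, which the symbol rule does not take in, had 23.8 and 9.30 TPM in Stk40-/- libraries, against 25.8 and 19.0 TPM in wild-type libraries. The groups overlapped for Hspb6, Hspb2 and Cryab alike.

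Hspb11 carries the family name, but its product is known as IFT25, a part of the intraflagellar transport machinery of cilia. Hspb11 (chromosome 4, 107253593 to 107279938) had 59.8 and 57.4 TPM in Stk40-/- libraries, against 44.7 and 41.4 TPM in wild-type libraries. The groups were far apart for their spread, at 58.6 ± 1.64 TPM in Stk40-/- cells and 43.0 ± 2.35 TPM in wild-type cells (SD, n = 2 each). The log2 fold change of 0.44 (SE 0.10) had the smallest adjusted p of all members, 0.361, and ranged from 0.38 to 0.49 with 1 library left out.

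**Figure D3:**
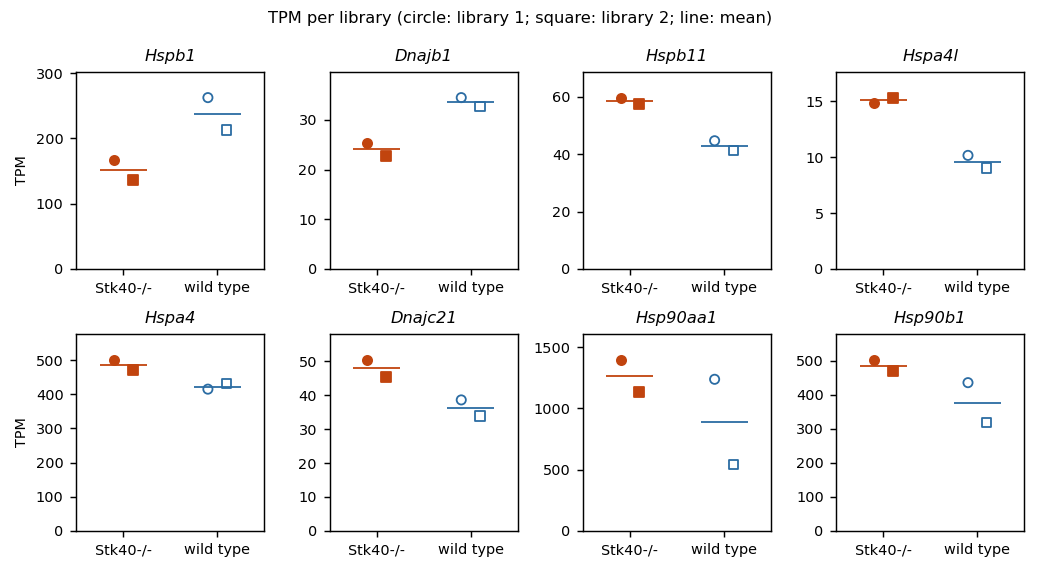
TPM in each library for 8 members (circle, library 1; square, library 2; line, group mean), Stk40-/- left of wild type, each panel from 0. Hspb1 and Dnajb1 are lower in both Stk40-/- libraries, Hspb11, Hspa4l, Hspa4, Dnajc21 and Hsp90b1 are higher in both, and for Hsp90aa1 wild-type library 2 alone is low at 543 TPM.

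Most CCT chaperonin genes were slightly higher in Stk40-/- cells. Of the 8 genes that the rule takes in 7 were tested, and in 6 of these each Stk40-/- library exceeded each wild-type library, whereas for Cct8 each was below them. Over all genes tested 27.5% were higher and 16.6% lower in this way. The tested genes summed with Cct6b to 4356 and 4228 TPM in Stk40-/- libraries, against 4189 and 3899 TPM in wild-type libraries. The differences were small, with log2 fold changes of 0.10 to 0.16 in the 6. Their median over all 7 was 0.12, against 0.07 over all genes tested, and 1 subunit, Cct3, had an unadjusted p below 0.05. Without the wild-type library 2, the lower of the wild-type pair in 6 of the 7 genes, the median was 0.08, against 0.05 over all genes.

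Cct2 had 808 and 804 TPM in Stk40-/- libraries, against 746 and 710.4 TPM in wild-type libraries (log2 fold change 0.15, SE 0.05, adjusted p = 0.456). Tcp1, which encodes the alpha subunit, had 762 and 770.4 TPM in Stk40-/- libraries, against 733 and 674 TPM in wild-type libraries (log2 fold change 0.12). Cct4 had 699 and 667 TPM in Stk40-/- libraries, against 652 and 606 TPM in wild-type libraries (log2 fold change 0.12). Each of these genes was higher without overlap. Cct5 had 594 and 549.5 TPM in Stk40-/- libraries, against 541 and 511 TPM in wild-type libraries (log2 fold change 0.12). Cct3 had 500.4 and 484 TPM in Stk40-/- libraries, against 434 and 445 TPM in wild-type libraries (log2 fold change 0.16, SE 0.06, adjusted p = 0.446). Cct7 had 418 and 398 TPM in Stk40-/- libraries, against 387 and 375 TPM in wild-type libraries (log2 fold change 0.10). For Tcp1, Cct4, Cct5 and Cct7 the gap between the groups was narrower than the distance between the wild-type libraries. The order of the subunit levels, from Cct2 down to Cct7, was the same in both groups apart from Cct8.

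Cct8, the theta subunit (ENSMUSG00000025613.13, chromosome 16, 87483326 to 87495873), had 574 and 554 TPM in Stk40-/- libraries, against 695 and 577 TPM in wild-type libraries. The log2 fold change was -0.17 (SE 0.11, adjusted p = 0.613) and shrank to -0.03 without wild-type library 1. Set against the mean of the other 6 tested subunits in the same library, Cct8 stood at 0.911 and 0.905 in Stk40-/- libraries, against 1.19 and 1.04 in wild-type libraries. The ratio did not overlap between groups, and the wild-type libraries differed from each other by about as much as the nearer of them did from the Stk40-/- libraries. Subunits assemble in equal numbers, yet transcript levels per length spread from 0.650 times (Cct7) to 1.31 times (Cct2) the mean of the 6 in Stk40-/- library 2, so unequal transcript levels were the rule in both groups.

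The zeta subunit has 2 genes. Cct6b, the testis form, had 0.843 and 1.32 TPM in Stk40-/- libraries, against 0.771 and 0.793 TPM in wild-type libraries, below the filter. Cct6a, the form used in all tissues, is listed in the table as a processed transcript and not as protein-coding, so the rule leaves it out. It had 896 and 969 TPM in Stk40-/- libraries, against 882 and 803 TPM in wild-type libraries (log2 fold change 0.15, SE 0.08, adjusted p = 0.554), within the range of the 6 and above all of them in level.

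**Figure D4:**
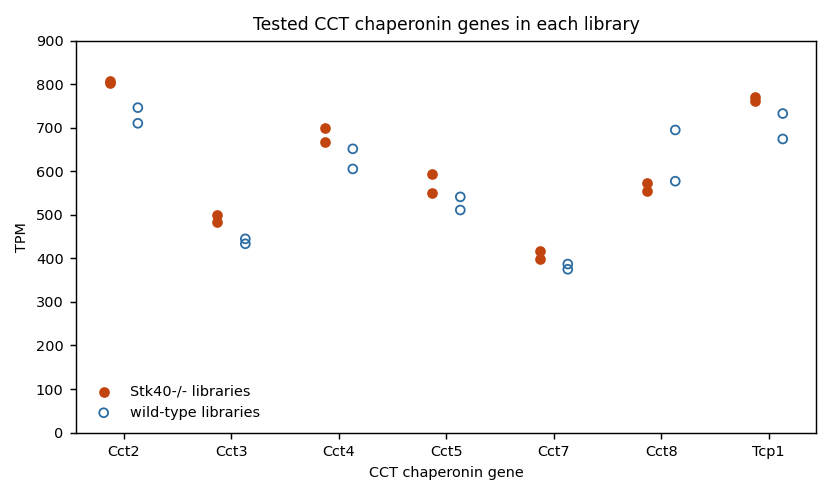
TPM of the tested CCT chaperonin genes in each of the 2 Stk40-/- (filled, left) and 2 wild-type (open, right) libraries. Cct8 is the gene whose Stk40-/- libraries, at 574 and 554 TPM, lie below both wild-type libraries, at 695 and 577 TPM.

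Chaperones and J-proteins of the ER summed to 1109 and 1051 TPM in Stk40-/- libraries, against 1111 and 897 TPM in wild-type libraries, and so overlapped. All 12 were tested, 8 positive and 4 negative, with a median log2 fold change of 0.09 that became -0.02 without wild-type library 2. Hsp90b1, the ER form of Hsp90 (GRP94), had 504 and 469 TPM in Stk40-/- libraries, against 436 and 319 TPM in wild-type libraries. The groups did not overlap, but the log2 fold change of 0.38 (SE 0.17, adjusted p = 0.500) was 0.16 when wild-type library 2 was left out, and 0.61 when wild-type library 1 was. Hspa5, the ER form of Hsp70 (BiP) and the usual marker of the unfolded protein response, had 351 and 331 TPM in Stk40-/- libraries, against 383 and 325 TPM in wild-type libraries. Its groups overlapped, with a log2 fold change of -0.05 (SE 0.10, adjusted p = 0.874).

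Of the 12 ER members, 4 were higher and 1 lower without overlap, against 27.5% and 16.6% of all genes tested. The higher ones were Hsp90b1 and the J-proteins Dnajc3, Dnajc16 and Dnajb14, and the lower one was the J-protein Dnajb11. Only Dnajb11 among them had a limma unadjusted p below 0.05. Dnajb11 (ERdj3; chromosome 16, 22857845 to 22879634), which binds secretory clients with BiP, had 78.7 and 69.7 TPM in Stk40-/- libraries, against 104 and 88.3 TPM in wild-type libraries (log2 fold change -0.37, SE 0.13, adjusted p = 0.445, unadjusted p = 0.0402). Dnajc3 (p58IPK) had 26.2 and 25.9 TPM in Stk40-/- libraries, against 25.02 and 21.4 TPM in wild-type libraries (log2 fold change 0.16, SE 0.13, adjusted p = 0.640). Hspa13, another ER-associated Hsp70, had 20.9 and 17.5 TPM in Stk40-/- libraries, against 31.6 and 20.4 TPM in wild-type libraries, and overlapped (log2 fold change -0.39, SE 0.25, adjusted p = 0.619). Without wild-type library 1 that value was -0.09.

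The ER stress element, CCAAT and CCACG with 9 bases of any kind between them, on either strand, is the site known for induction in the unfolded protein response. It was found in the windows of 3 members (4.55%), against 0.137% of all genes with a window. All 3 belong to the ER group: Hspa5, Hsp90b1 and Dnajc3. The element contains CCAAT, which alone occurred in 43.9% of members and 41.1% of all genes with a window. The elements are shown in capitals with their surroundings because they are what the promoters of these 3 ER genes share. The sequences are from RefSeq GRCm38.p6, at chr2:34772005-34772063 (plus strand, element at -65 to -47) for Hspa5 and chr14:118937807-118937865 (plus strand, -105 to -87) for Dnajc3. Hsp90b1, at chr10:86705513-86705676 (minus strand), holds the element once in each orientation between -212 and -89.
Hspa5: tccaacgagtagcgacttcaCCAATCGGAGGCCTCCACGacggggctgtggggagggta
Dnajc3: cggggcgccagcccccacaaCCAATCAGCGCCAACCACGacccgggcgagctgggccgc
Hsp90b1: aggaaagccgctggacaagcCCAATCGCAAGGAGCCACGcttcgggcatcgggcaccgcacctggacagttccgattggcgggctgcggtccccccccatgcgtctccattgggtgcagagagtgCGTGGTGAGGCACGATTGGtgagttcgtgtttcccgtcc
The log2 fold changes of these genes were -0.05, 0.16 and 0.38 in the same order, and that of Hspa5 was 0.07 when wild-type library 1 was left out.

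Mitochondrial chaperones and J-proteins were close to level, at 2162 and 2220 TPM in Stk40-/- libraries, against 2161 and 2160 TPM in wild-type libraries. All 8 were tested, 5 positive and 3 negative, with a median log2 fold change of 0.06. Hspd1 had 832 and 817 TPM in Stk40-/- libraries, against 814 and 758 TPM in wild-type libraries (log2 fold change 0.07, SE 0.06). Hspe1, the gene of Hsp10, the lid of the Hsp60 chamber, had 568 and 636 TPM in Stk40-/- libraries, against 629 and 652 TPM in wild-type libraries (log2 fold change -0.09, SE 0.08). Hspa9, the mitochondrial Hsp70, had 406 and 408 TPM in Stk40-/- libraries, against 383 and 406 TPM in wild-type libraries (log2 fold change 0.04, SE 0.06). Hspe1 overlapped between groups and Hspd1 and Hspa9 did not, but their nearest libraries were almost level. For Hspa9 these were Stk40-/- library 1 at 406.2 TPM and wild-type library 2 at 405.8 TPM. For Hspd1 they were Stk40-/- library 2 at 817.5 TPM and wild-type library 1 at 814.2 TPM. The adjusted p of the 3 genes lay between 0.650 and 0.795.

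Hspd1 and Hspe1 start head to head on chromosome 1, and their annotated starts overlap, so reads of that stretch cannot be assigned without strand. The ratio of Hspd1 to Hspe1 was 1.46 and 1.29 in Stk40-/- libraries, against 1.29 and 1.16 in wild-type libraries. One promoter window of Hspd1 shares 285 bases with that of Hspe1 on opposite strands. Another, which covers the annotated Hspd1 start, shares 4 bases. The stretch before Hspe1 holds the 3-unit heat shock element in overlapping copies, in capitals at -89 to -72. The 250 bases before Hspe1, which lie within the first of these Hspd1 windows, are shown from RefSeq GRCm38.p6, plus strand, chr1:55087898-55088147.
Hspe1: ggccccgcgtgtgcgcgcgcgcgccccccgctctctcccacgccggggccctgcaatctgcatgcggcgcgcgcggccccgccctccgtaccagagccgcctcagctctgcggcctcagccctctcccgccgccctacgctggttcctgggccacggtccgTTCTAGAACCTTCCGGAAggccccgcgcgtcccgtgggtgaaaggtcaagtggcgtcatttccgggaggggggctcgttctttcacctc

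Of the 8 mitochondrial members, 5 were higher and 1 lower without overlap, against 27.5% and 16.6% of all genes tested. The J-proteins that differed in this way were Dnajc30, which was higher, and 3 for which values are given here. Dnajc15, a J-protein of the inner membrane, had 104 and 101 TPM in Stk40-/- libraries, against 81.3 and 93.5 TPM in wild-type libraries (log2 fold change 0.23, SE 0.10, adjusted p = 0.504). Dnajc19, its relative in the import motor, had 131 and 144 TPM in Stk40-/- libraries, against 129 and 127 TPM in wild-type libraries (log2 fold change 0.10, SE 0.08). Dnaja3, the main J-protein of the matrix (chromosome 16, 4639989 to 4707695), had 53.8 and 49.2 TPM in Stk40-/- libraries, against 59.1 and 56.3 TPM in wild-type libraries (log2 fold change -0.16, SE 0.10, adjusted p = 0.609). None of the 3 had an unadjusted p below 0.05.

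The remaining 20 members, nearly all J-proteins of class C, which share little beyond the J domain, summed to 849.8 and 803 TPM in Stk40-/- libraries, against 795 and 742 TPM in wild-type libraries. Of 16 tested 10 were positive and 6 negative, and their median log2 fold change was 0.09. The most abundant hardly differed. Dnajc8, linked to the spliceosome, had 183 and 166 TPM in Stk40-/- libraries, against 159 and 168 TPM in wild-type libraries. Dnajc7, which binds both Hsp70 and Hsp90, had 133 and 136 TPM in Stk40-/- libraries, against 138 and 133 TPM in wild-type libraries. Dnajc9, a histone chaperone, had 110.1 and 126 TPM in Stk40-/- libraries, against 113 and 126 TPM in wild-type libraries. Their log2 fold changes were 0.09, -0.01 and -0.02.

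Dnajc21, whose product acts in maturation of the large ribosomal subunit in yeast and human cells (chromosome 15, 10446756 to 10470516), had 50.6 and 45.5 TPM in Stk40-/- libraries, against 38.6 and 33.9 TPM in wild-type libraries. The groups did not overlap (log2 fold change 0.40, SE 0.12, adjusted p = 0.421, unadjusted p = 0.0296). Dnajc22 had 10.0 and 7.95 TPM in Stk40-/- libraries, against 13.5 and 10.4 TPM in wild-type libraries (log2 fold change -0.37, SE 0.21, adjusted p = 0.586). Dnajc27, a small GTPase with a J domain, had 8.78 and 8.16 TPM in Stk40-/- libraries, against 7.16 and 6.15 TPM in wild-type libraries (log2 fold change 0.31, SE 0.18, adjusted p = 0.592). Dnajc6, the clathrin-uncoating factor auxilin, was below the filter and untested, with 1.33 and 1.61 TPM in Stk40-/- libraries, against 0.530 and 0.352 TPM in wild-type libraries. Its groups did not overlap.

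Position on a chromosome went with part of the lower values. The 463 genes tested on chromosome 16 had a median log2 fold change of -0.17, and 70.2% of them were negative, while the medians of the other 19 chromosomes lay between 0.03 and 0.10. On that chromosome 42.1% of genes were lower in both Stk40-/- libraries without overlap and 10.2% higher. All 5 members there were tested (Cct8, Dnajb11, Hspa13, Dnaja3 and Dnajc28), 4 were negative, and 3 of them (Cct8, Dnajb11 and Dnaja3) are among the 8 members that were lower without overlap. Outside chromosome 16, 44 of 64 tested members were positive and 20 negative, with a median log2 fold change of 0.10. There, 25 members were higher and 5 lower without overlap (39.1% and 7.81%, against 28% and 15.8% of all genes outside chromosome 16). Hspb1, on chromosome 5, and Dnajb1, on chromosome 8, are among those 5. Genotype and the state of chromosome 16 cannot be told apart with these libraries.

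The members also differed between libraries of the same genotype. Wild-type library 2 had the lowest TPM of the 4 libraries in 34 of 69 tested members (49.3%), against 30.1% of all genes tested. Stk40-/- library 1 had the highest in 33 members (47.8%), against 32.2% of all genes. The largest gap was that of Hsp90aa1, whose level in wild-type library 2 was 1.06 on the log2 scale below the next lowest library. It was followed by Dnajc2, a ribosome-associated J-protein, with a gap of 0.45 (76.5 TPM in wild-type library 2) and Hsp90b1, also with 0.45. The median over members of the log2 difference between library 2 and library 1 was -0.10 in Stk40-/- cells and -0.09 in wild-type cells, against -0.03 and -0.02 for all genes. These within-group differences are as large as the members' median between genotypes, 0.09. Reads were 100 or 150 bases long on different instruments. The sources used here do not tie either length to a library, so its part in these differences was not tested.

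**Figure D5:**
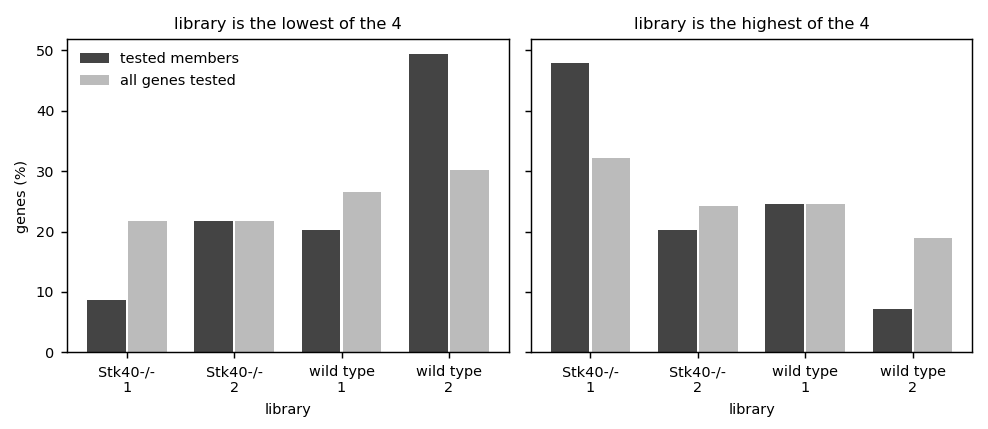
Share of genes (%) that have their lowest (left) or highest (right) TPM in each of the 4 libraries, for the tested members and for all genes tested. Wild-type library 2 is the lowest in 49.3% of members against 30.1% of all genes, and Stk40-/- library 1 the highest in 47.8% against 32.2%.

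The regulators and partners of the family were given by lists of 70 genes in all, 68 of them tested, with 39 positive and 29 negative and a median log2 fold change of 0.04. None passed the test. Of these, 23 were higher and 10 lower in Stk40-/- cells without overlap, against 27.5% and 16.6% of all genes. Of the heat shock factors, Hsf4 and Hsf5 were below the filter. Hsf1, the main regulator of the heat response, had 36.6 and 31.4 TPM in Stk40-/- libraries, against 27.2 and 28.7 TPM in wild-type libraries (log2 fold change 0.27, SE 0.13, adjusted p = 0.523). Hsf2 had 37.4 and 33.4 TPM in Stk40-/- libraries, against 28.1 and 28.3 TPM in wild-type libraries (log2 fold change 0.32, SE 0.12, adjusted p = 0.449). Both were higher without overlap.

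Of 24 cochaperones of Hsp70 and Hsp90, all tested, 14 were positive and 10 negative (median log2 fold change 0.04), and 10 were higher and 3 lower without overlap (27.5% and 16.6% of all genes). The peptidyl-prolyl isomerases that bind Hsp90 led the list. Ppid had 298 and 304 TPM in Stk40-/- libraries, against 263 and 247 TPM in wild-type libraries (log2 fold change 0.24, SE 0.07, adjusted p = 0.401). Fkbp5 had 46.9 and 50.1 TPM in Stk40-/- libraries, against 39.3 and 36.9 TPM in wild-type libraries (log2 fold change 0.34, SE 0.10, adjusted p = 0.413). Prefoldin hands actin and tubulin to CCT. The 9 genes of prefoldin and other CCT cofactors had 6 positive and 3 negative values and a median of 0.04. Of these, 1 was higher and 2 were lower without overlap (27.5% and 16.6% of all genes). Vbp1, a prefoldin subunit, had 208 and 197 TPM in Stk40-/- libraries, against 189 and 119 TPM in wild-type libraries, and Pfdn6 had 106 and 98.1 TPM in Stk40-/- libraries, against 111 and 116 TPM in wild-type libraries.

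The 10 mitochondrial partners split evenly, 5 positive and 5 negative, with a median log2 fold change of -0.01. Without overlap, 3 were higher (Clpb, Grpel2 and Lonp1) and 2 lower (Hscb and Trap1), against 27.5% and 16.6% of all genes. Hscb, a J-protein of iron-sulfur cluster assembly that the symbol rule does not take in, had 32.5 and 31.1 TPM in Stk40-/- libraries, against 46.2 and 45.5 TPM in wild-type libraries (log2 fold change -0.52, SE 0.10, adjusted p = 0.312). Trap1, the mitochondrial Hsp90, had 114 and 105 TPM in Stk40-/- libraries, against 144 and 133 TPM in wild-type libraries (log2 fold change -0.33, SE 0.09, adjusted p = 0.401), and lies on chromosome 16. The 23 genes of ER folding and the unfolded protein response had 12 positive and 11 negative values and a median of 0.02. Of these, 7 were higher and 3 lower without overlap (27.5% and 16.6% of all genes). Herpud1, of ER-associated degradation, had 23.5 and 26.8 TPM in Stk40-/- libraries, against 13.5 and 17.2 TPM in wild-type libraries (log2 fold change 0.68, SE 0.17, adjusted p = 0.399). Sdf2l1, which forms a complex with Dnajb11, had 25.2 and 20.3 TPM in Stk40-/- libraries, against 32.4 and 40.7 TPM in wild-type libraries (log2 fold change -0.66, SE 0.18, adjusted p = 0.401). Sdf2l1 and Dnajb11 are both on chromosome 16 and both were lower without overlap.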

How the data were processed

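Polyadenylated RNA was sequenced from 2 Stk40-/- and 2 wild-type libraries, grouped by their titles. Per the file headers the authors deposited TPM for each gene, made with CASAVA 1.7 and Salmon 0.8.2 per the submitters' processing notes. The build named there is hg38 although the gene IDs are mouse, so which annotation was used is unknown. Depth cannot be recovered from TPM, and no counting error can be given. Reads shared by near-identical genes are split by estimation. A total of 0 per-sample columns was left unused. The labels do not say that libraries came from separate cultures, so a p-value reflects the spread among these samples alone, and that spread may be technical.

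Positions are from GENCODE vM21 (GRCm38), matched by ID for 51633 genes and all 81 members. Promoter windows are from RefSeq, GRCm38.p6. The 15739 genes whose mean reached 1 TPM were fitted with limma 3.58.1 (R 4.3.3) as log2(TPM + 1), by genotype alone, with empirical Bayes, an intensity trend, and Benjamini-Hochberg adjustment over all of them at a threshold of 0.05. The fit was also run on simulated data with independent noise for each gene, which holds no shift shared by a library or a chromosome. Its outcome is not given here. Summed levels are given per library without a call, since an exact permutation test of 2 against 2 libraries cannot go below p = 0.333. Members and lists were chosen with earlier results of these data known. Named with values were, in each role list, the 3 tested members with the highest mean and the 3 with the smallest unadjusted p; all cytosolic Hsp90 and CCT genes, Hspa1a and Hspa1b; the members nearest the filter; and 2 genes of each partner list with the smallest unadjusted p. Hsph1, Hspb2, Hspb6, Cryab, Cct6a, Dnajb14, Dnajc2, Dnajc3, Dnajc16, Dnajc19, Dnajc25, Dnajc28 and the 2-unit heat shock element were added after the values were seen. Alternatives were pseudocounts of 0.1 and 0.01, filters above 0 and at 5 TPM, no intensity trend, quantile normalization, TPM rescaled without mitochondrial and ribosomal protein genes, a replicate block, each library left out, and, added after the data were seen, no genes of chromosome 16. Protein sequences were not analysed here.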

Additional observations from a re-analysis of the deposited data

How the results depend on the processing

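Calls over all genes stayed at 0 under all 12 alternatives (smallest adjusted p between 0.0694 and 0.319). Deviations of same-numbered libraries from their group means were weakly correlated across all genes tested (0.0893). For the members, the median log2 difference of library 2 minus library 1 was -0.10 in Stk40-/- and -0.09 in wild-type cells. Whether the library numbers mark a pairing is not known. With the replicate block the smallest adjusted p was 0.262 and the members' median log2 fold change 0.093. That median lay between 0.0478 (quantile normalization) and 0.108 over all alternatives. Over the 12 alternatives the median of all genes tested lay between 0.0166 (quantile normalization) and 0.074 (without Stk40-/- library 2). Of 51 named tested members 41 had the same sign in every alternative, as had all 10 named partner genes and Cct6a. The groups did not overlap for any of these 10 genes or for Cct6a. Leaving out 1 library cannot turn the sign of such a gene. The partner genes, like many of the members, were also named for a small unadjusted p, so stable signs were largely fixed by that choice. Quantile normalization turned Dnaja2 to -0.00451 and moved the median of other class C J-proteins to 0.031. A filter above 0 TPM moved the median of class A and B J-proteins to -0.0586, since more low genes entered. Without genes of chromosome 16, 5 members were lower without overlap.

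With 1 library left out, medians ranged from 0.0424 to 0.247 for Hsp70 and Hsp110, -0.0216 to 0.0502 for class A and B J-proteins, -0.6 to 0.00399 for small heat shock proteins, -0.0181 to 0.111 for the ER, 0.0353 to 0.0561 for mitochondria and 0.0372 to 0.103 for other class C J-proteins. The log2 ratio of summed TPM ranged from 0.131 to 0.336 for cytosolic Hsp90, -0.0405 to 0.268 for the ER and 0.00137 to 0.0396 for mitochondria. Members higher without overlap numbered 33 to 39, or 47.8% to 56.5% of those tested, against 39.9% to 44.1% of all genes. Members lower without overlap numbered 12 to 18, or 17.4% to 26.1%, against 26.6% to 31.8% of all genes. These shares are larger than with all libraries, since 3 libraries overlap less often. Fold changes that turned sign ranged from -0.139 to 0.208 for Dnaja1, -0.0176 to 0.0833 for Dnaja2, -0.226 to 0.0822 for Dnajb3, -0.0353 to 0.019 for Dnajc7, -0.119 to 0.0758 for Dnajc9, -0.0318 to 0.215 for Hspa14, -0.167 to 0.0672 for Hspa5, -0.0252 to 0.261 for Hsph1, -1.13 to 0.12 for Hspb2, -0.16 to 0.3 for Dnajc28 and -1.17 to 0.0958 for Cryab; the cause was not tested. These fits leave 1 library in a group, which is assumed to vary like the other group. Members near 1 TPM are limited by a depth that TPM does not show.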
